A study of Mus musculus with 7 samples.

Results

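In both resting Th1 and resting Th2 cells, 243 windows of 200 bp carried many reads from a BRG1 immunoprecipitation, while the same windows held almost none in naive CD4+ T cells. They were taken from 12361640 windows on the 19 mouse autosomes and are called the shared gained windows here. Coordinates are on mm9. A window was chosen where its level was at least 5 RPM (reads per 1000000 distinct reads) in resting Th1 and in resting Th2 and at most 1 RPM in naive. Both resting levels also had to reach 3 times the input level plus 0.3 RPM. In reads, the rule asked for at least 10 in resting Th1, at least 7 in resting Th2 and at most 2 in naive. The levels in these 3 libraries therefore chose the windows and are given as a description only. Input entered the choice too, since the rule kept out windows with high input. The stimulated libraries, and the reads beside the windows, were not used by the rule.

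BRG1 is the ATPase of SWI/SNF (BAF) complexes, which use ATP to slide or evict nucleosomes and so open DNA at promoters and enhancers. It binds no specific sequence by itself with high selectivity and is brought to DNA by transcription factors and by modified histones. In T cells it is known to act at cytokine and other effector genes. Th1, Th2 and Th17 cells are helper subsets that arise from naive CD4+ cells under different cytokines and make different cytokines in turn.

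All cells came from Balb/C mice. The naive library was made from CD4+CD62L+ cells, 95% pure, taken without culture from spleens and lymph nodes at 4 to 6 weeks of age. Resting Th1 and Th2 cells had gone through a single round of culture from such naive cells, on plates coated with anti-CD3 (1 µg/ml) and anti-CD28 (2 µg/ml), with IL-2 (100 U/ml) added later. Th1 cultures received IL-12 (1 ng/ml) and anti-IL-4 (10 µg/ml), and Th2 cultures received IL-4 (10 ng/ml) and anti-IFNγ (10 µg/ml). Th17 cultures received soluble anti-CD3 (4 µg/ml) and anti-CD28 (1 µg/ml), both blocking antibodies (10 µg/ml), IL-6 (100 ng/ml), IL-1β (10 ng/ml) and TGF-β (1 ng/ml), and later IL-23 (10 ng/ml). Stimulated Th1, Th2 and Th17 cells were then treated with PMA (50 ng/ml) and ionomycin (500 ng/ml) for 1.5 h, which mimics signals from the T cell receptor. BRG1 was precipitated with the J1 antibody, and the input library was DNA of pooled CD4+ cells without precipitation. A resting Th17 library was not analysed here. The naive cells were uncultured and every resting culture had been activated through CD3 and CD28, so activation, time in culture and differentiation cannot be told apart in a gain over naive.

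With 1 library in each group there were no replicates to set a difference against, and no p-value is given. Every comparison below is one of libraries. Intervals are 95% exact intervals that cover counting error only, and those on shares of windows treat windows as independent, which neighbours are not. Distinct reads ranged from 1340208 in resting Th2 to 7892944 in stimulated Th17, with 2071800 in naive, 1808000 in resting Th1 and 3531867 in input. Reads that repeated a position and strand made up 41.4% of the naive library, 28.5% and 36.6% of the resting Th1 and Th2 libraries, and 7.23% to 11.8% of the others. One read was worth 0.483 RPM in naive and 0.127 RPM in stimulated Th17, so the low naive levels stand on very few reads. BRG1 binding says nothing about expression, and the labelled cell types were not checked against marker genes because no positions of genes were used here. In cell populations, fewer cells with BRG1 at a window and less BRG1 per cell cannot be told apart.

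The shared gained windows made up 10.3% of the 2357 windows that passed the same resting thresholds. The other 2114 had more than 1 RPM in naive and serve as the comparison set below, called the comparison windows. Having more than 1 RPM did not make them bound in naive: their naive levels began at 1.45 RPM, or 3 reads, and their median was under 5 RPM. Under the same rule applied to 1 subset only, with the other resting library also at most at 1 RPM, 50 windows were gained in resting Th1 alone and 295 in resting Th2 alone. Their medians sat at the lowest allowed counts, 10 reads (5.53 RPM) in Th1 and 7 reads (5.22 RPM) in Th2. Resting Th2 had the fewest distinct reads of all libraries, so these 2 counts do not measure which subset gained more. The mirrored rule, naive high and both resting libraries low, found 3 windows. Of the 243, 46 had 0 naive reads, 80 had 1 and 117 had 2. Naive held 314 reads over all of them, a density 1.07 times that of input (0.930 to 1.24). Their median level was 0.483 RPM in naive and, at rest, 6.64 RPM for Th1 and 6.72 RPM for Th2. Resting Th1 reached 12.2 RPM at most and resting Th2 17.9 RPM, so most of the windows sat close above the 5 RPM threshold. The comparison windows had medians of 4.83, 8.30 and 8.95 RPM in the same libraries.

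Many windows lay near the edges of the rule. In resting Th1, 59 windows had the lowest allowed 10 reads, and 75 windows with 9 reads met every other condition. The edge in resting Th2 had 60 windows with 7 reads inside and 73 with 6 reads outside. The edge in naive had 117 windows with 2 reads inside and 130 with 3 reads outside. The windows on either side of an edge could look alike. The first inside the resting Th1 edge, chr1:51566001-51566200, had 2 naive reads, 10 (Th1) and 8 (Th2) at rest, and 42, 27 and 36 after stimulation of Th1, Th2 and Th17 cells. A window outside it, chr1:54898801-54899000, had 1, 9, 13, 29, 33 and 54 reads in the same order.

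Among the windows with the highest resting levels, some were also high in every stimulated library. Sites are ranked here by the lower of their resting levels, and a site is 1 window or 2 touching windows. The top site, chr2:69485201-69485400, had 2 naive reads, and 22 (Th1) and 24 (Th2) at rest, which are 0.965, 12.2 and 17.9 RPM. After stimulation it held 53 reads in Th1, 67 in Th2 and 55 in Th17, or 13.5, 15.7 and 6.97 RPM, with 7 reads (1.98 RPM) in input. This window was high in all 5 libraries of differentiated cells and lowest in naive. The second, chr4:125788201-125788400, had 2 naive reads, 21 in resting Th1, 22 in resting Th2, 64, 48 and 64 in stimulated Th1, Th2 and Th17, and 1 in input. It was again high in every differentiated library, at 8.11 RPM in stimulated Th17 and 16.3 RPM in stimulated Th1. A window at chr12:55394401-55394600, together with its neighbour a site of 400 bp, had 0 reads in naive and 17 in each resting library. It held 43, 33 and 24 reads in stimulated Th1, Th2 and Th17 and 1 in input.

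Other sites with equally high resting levels had far fewer reads after stimulation. At chr9:121836201-121836400, resting Th1 had 12.2 RPM and resting Th2 10.4 RPM, against 3.06 RPM for Th1, 4.46 RPM for Th2 and 0.507 RPM for Th17 after stimulation. At chr12:80726801-80727000 the resting levels were 10.5 and 8.95 RPM from 19 and 12 reads, and the stimulated levels were 1.02, 2.35 and 0.633 RPM from 4, 10 and 5 reads. At chr2:6632201-6632400, with 8.85 and 10.4 RPM at rest, stimulated Th17 had 0.253 RPM, at the level of 2 reads. A high resting level in both subsets thus came with both high and low levels in the stimulated libraries. The remaining sites among the 10 highest at rest were chr9:54974201-54974400, chr11:100721601-100721800, chr14:71175801-71176000 and chr5:36827201-36827400, with 8.85 to 9.96 RPM in resting Th1.

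Reads in the stimulated libraries, which played no part in the choice, were well above input in these windows. After stimulation the median was 3.57 RPM for Th1 (range 0.255 to 17.1), 3.75 RPM for Th2 (0.469 to 15.7) and 1.90 RPM for Th17 (0 to 8.11), against 0.566 RPM for input (0 to 2.27). Summed over all 243, the stimulated Th1 library had 7.39 times the density of input (6.74 to 8.13), the Th2 library 7.52 times (6.85 to 8.27) and the Th17 library 3.77 times (3.43 to 4.15). The same ratios in the comparison windows were 7.11, 6.59 and 3.57, so relative to input the shared gained windows were at least as enriched, although their levels in RPM were lower. Input was also lower there, with a mean of 0.580 RPM against 1.12 RPM in the comparison windows. The same input condition chose both sets, so mean input levels are not independent of the choice. Windows with high input were kept out, so the ratios to input here and below stood high by selection. The sets differ in the naive condition only, and the cause of the lower mean input was not tested. No shared gained window lay below its input level in stimulated Th1, 3 did in stimulated Th2 and 25 in stimulated Th17. In naive, where the rule held the level down, 102 did.

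The reads of the differentiated libraries came from both strands. At least 1 read of each strand was present in 241 of the 243 windows for Th1 and 233 for Th2 at rest, and after stimulation in 232 for Th1, 237 for Th2 and 227 for Th17, against 56 for naive and 90 for input. The low counts for naive and input follow from few reads and are no contrast in strand. The rule held naive to at most 2 reads, the 46 windows with 0 and the 80 with 1 cannot show both strands, and input had a median of 2 reads. Within 300 bp of the window centres, 5′ ends on the plus strand had a median position 50 bp upstream in resting Th1 and those on the minus strand 43 bp downstream. In stimulated Th1 these positions were 51 bp upstream and 35 bp downstream, and in stimulated Th17 42 bp upstream and 29 bp downstream. Input ends had similar positions, 34 bp upstream and 38 bp downstream. The naive ends around the same windows were not spaced in this way, with medians 6 bp downstream on the plus strand and 28 bp upstream on the minus strand. In the comparison windows the naive medians were 44 bp upstream and 43 bp downstream. The rule removes naive reads from the middle of the window and asks for resting reads there, so the naive and resting positions are a description. Copies per distinct read in the windows were 1.74 in naive, 1.69 in resting Th1 and 1.91 in resting Th2, against 1.53 to 1.66 in the stimulated libraries and 1.15 in input.

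A window was called bound after stimulation where it had at least 5 RPM and at least 3 times the input level plus 0.3 RPM. By this rule 70 of the 243 windows were bound in Th1 (28.8%, 23.2 to 34.9), 77 in Th2 (31.7%, 25.9 to 37.9) and 15 in Th17 (6.17%, 3.50 to 9.98). Over all autosomal windows the percentages were 0.0604, 0.0443 and 0.0105. Over the comparison windows they were 65.6, 59.4 and 17.8. The shared gained windows were thus bound far more often than the genome at large and less often than the comparison windows, with intervals that did not overlap in any of the 3 libraries. Of the windows gained in resting Th1 alone, 6%, 6% and 2% were bound in stimulated Th1, Th2 and Th17. Of those gained in resting Th2 alone, 3.05%, 10.2% and 0.678% were bound.

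Windows bound after stimulation were mostly bound in Th1 and Th2 together. Of the 243, 150 (61.7%) were bound in none of the stimulated libraries, 37 in 1, 43 in 2 and 13 in all 3. In the comparison windows 602 of 2114 (28.5%) were bound in none and 364 (17.2%) in all 3. The combination of Th1 and Th2 without Th17 accounted for 42 shared gained windows, Th2 alone for 21, Th1 alone for 15, Th17 alone for 1, and Th2 with Th17 for 1. None was bound in Th1 and Th17 without Th2. The 150 windows below the call in every stimulated library were still above input, with densities 5.39 times input for Th1 (4.72 to 6.19), 5.72 times for Th2 (5.0 to 6.55) and 3.15 times for Th17 (2.76 to 3.61). Their resting medians, 6.64 RPM in Th1 and 6.72 RPM in Th2, compare with 6.64 and 8.21 RPM in the 93 windows bound in at least 1 stimulated library, the same in Th1 and higher in Th2.

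The 13 windows bound in all 3 stimulated libraries included the highest levels in stimulated Th2 and Th17. The highest in stimulated Th1, 17.1 RPM at chr5:64751801-64752000, was below the call in Th17 with 4.05 RPM. Ranked by the lowest of the 3 stimulated levels, the first site was chr4:125788201-125788400, described above. The second, chr15:72948401-72948600, had 2 naive reads, 14 (Th1) and 7 (Th2) at rest, and 62, 61 and 64 in stimulated Th1, Th2 and Th17, with 1 in input. Its stimulated levels, 15.8, 14.3 and 8.11 RPM, were all above its resting levels of 7.74 and 5.22 RPM. The third, chr5:66591401-66591600, had 1 naive read, 10 and 11 resting reads and 57, 40 and 60 stimulated reads. At chr19:5816001-5816200 the reads were 2 in naive, 18 and 10 at rest, 53, 47 and 59 after stimulation and 6 in input. A site on chromosome 18 and the top resting site on chromosome 2 completed the 6 highest. At chr1:36217201-36217400, which held no naive read, resting Th1 had 20 reads, resting Th2 11, and stimulated Th1, Th2 and Th17 had 44, 53 and 53.

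At the other end, 5 windows (2.06%) had at most 1 RPM in all 3 stimulated libraries, against 4 of the 2114 comparison windows (0.189%). The lowest was chr10:121323801-121324000, with 2 reads in naive, 11 (Th1) and 7 (Th2) at rest, 2, 2 and 4 after stimulation of Th1, Th2 and Th17, and 0 in input. It was high in the resting libraries only. At chr1:181489801-181490000 resting Th2 reached 11.2 RPM and resting Th1 6.08 RPM, against 0.511, 0.704 and 0.253 RPM after stimulation. At chr2:79090201-79090400 the resting libraries had 10 and 9 reads and stimulated Th17 had 0. Windows at chr2:26451601-26451800, chr12:74952001-74952200 and chr15:55682801-55683000 had 0.766 to 1.02 RPM in stimulated Th1. A level of at least 10 RPM in some stimulated library was reached by 18 shared gained windows (7.41%) and by 577 comparison windows (27.3%).

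Stimulated levels were below resting levels in most windows, but resting levels had chosen the windows and so stood high by selection. The level in stimulated Th1 was at least that in resting Th1 in 46 of 243 windows (18.9%), and that in stimulated Th2 at least that in resting Th2 in 27 (11.1%). These counts share the resting reads of the rule and are a description.

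Windows with many naive reads were bound after stimulation more often than those with few, also at similar resting levels, while the groups with the fewest reads differed little. To compare them, windows were kept where the lower resting level was under 9 RPM and were grouped by naive reads. In stimulated Th1, 17.8% of the 45 windows with 0 naive reads were bound (8.0 to 32.1), 33.8% of the 80 with 1 read and 27.4% of the 113 with 2 reads. Beyond the threshold of the rule the shares were 35.5% of 279 windows with 3 to 4 naive reads, 44.7% of 255 with 5 to 6, 58.4% of 454 with 7 to 10, and 73.4% of 526 with 11 or more (69.4 to 77.1). In stimulated Th2 the shares of these 7 groups were, in order, 28.9%, 33.8%, 29.2%, 32.6%, 38.0%, 50.0% and 62%, and in stimulated Th17 they were 6.67%, 2.5%, 7.08%, 7.17%, 6.67%, 10.4% and 15.4%. In Th2 and Th17 no order from 0 to 6 naive reads was visible beyond the intervals. No step stood at the threshold itself: the windows with 3 to 4 naive reads had intervals that overlapped those with 2 reads in each stimulated library. The median of the lower resting level moved from 5.97 RPM with 0 naive reads to 6.72 RPM with 11 or more, and mean input from 0.510 to 1.01 RPM. The part of these in the trend was not tested.

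**Figure D1:**
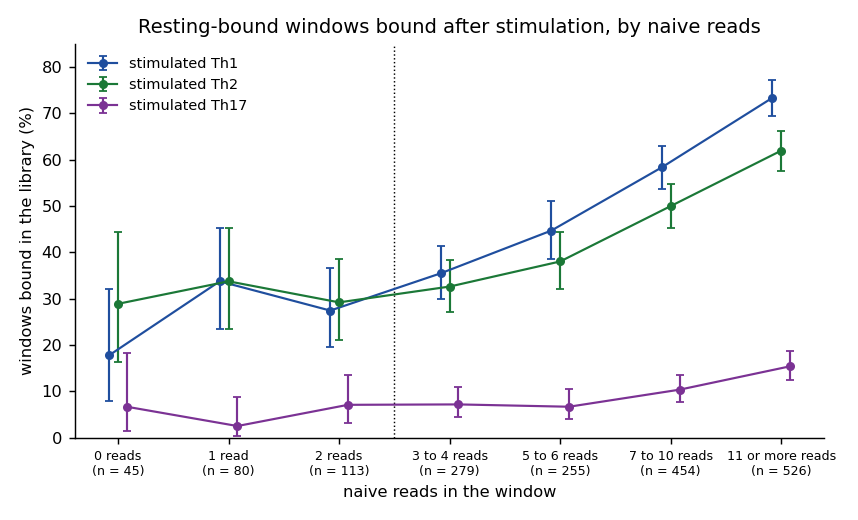
Percent of windows bound in stimulated Th1, Th2 and Th17 (y axis) against the number of naive reads (x axis, 7 groups), for windows with both resting levels passing the rule and the lower under 9 RPM. Bars are 95% exact intervals. The first 3 groups, with 0 to 2 naive reads, are shared gained windows, and their shares in stimulated Th1, 17.8% to 33.8%, lie below the 73.4% of windows with 11 or more naive reads.

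The bound share was also compared by resting level. Among shared gained windows whose lower resting level was 5 to 6 RPM, 25.6% of 129 were bound in stimulated Th1 and 24.8% in stimulated Th2. With 6 to 7 RPM the shares were 22.4% and 32.8% of 58 windows, and with 7 to 9 RPM they were 39.2% and 43.1% of 51. In stimulated Th17 the shares of these ranges were 3.10%, 1.72% and 15.7%. Of these ranges, 7 to 9 RPM had the highest share in every stimulated library. The intervals overlapped (18.3 to 34 at 5 to 6 RPM and 25.8 to 53.9 at 7 to 9 RPM in Th1), and a trend with resting level was not tested. The comparison windows had 52.5% and 40.5% of 602 at 5 to 6 RPM, 50.6% and 47.7% of 405 at 6 to 7 RPM, and 67.7% and 60.0% of 507 at 7 to 9 RPM. Only 5 shared gained windows had a lower resting level of at least 9 RPM, and 4 of these were bound in stimulated Th1 and 4 in stimulated Th2, too few to set beside the 87.0% and 85.7% of 600 comparison windows.

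Stimulated Th1 and Th2 levels were nearly equal at the shared gained windows. Summed over all of them, the ratio of stimulated Th1 to stimulated Th2 was 0.983 (0.942 to 1.026), against 1.079 (1.068 to 1.091) in the comparison windows. Of 229 windows with at least 10 reads in the pair, 1 was at least 3-fold higher in Th1 and 5 were at least 3-fold higher in Th2, with intervals that left out 1. Over all autosomal windows with at least 10 reads, 2.47% were called higher in Th1 and 2.56% higher in Th2, and the shares here, 0.437% and 2.18%, were not above that background. The comparison windows gave 0.238% and 0.286%. Over all autosomal windows, compared or not, the summed ratio was 1.002 (1.001 to 1.004). Scaling to RPM sets that ratio close to 1, so it is no background for the ratio of the shared gained windows. The median ratio was 0.925 in the shared gained windows and 1.088 both in the comparison windows and over all windows compared, where 1.088 is the RPM ratio of equal read counts and a shift of 0.12 on the log2 scale. Th2 had the higher level in 138 of the 243 (56.8%, 50.3 to 63.1) and in 826 of the comparison windows (39.1%). Which of the stimulated Th1 and Th2 medians was higher depended on how the windows were chosen: it was Th2 as given above, and Th1 with windows tiled from base 100 (4.08 against 3.75 RPM), with a shift of 100 bp (3.70 against 3.52 RPM) or with a naive maximum of 0.5 RPM (3.83 against 3.52 RPM).

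The windows with the largest difference had low counts on one side. The window called higher in Th1, chr1:37374601-37374800, held 16 Th1 and 4 Th2 reads after stimulation, a 4.35-fold difference in RPM (1.4 to 17.9), with 12 Th17 and 2 input reads. In favour of Th2, chr12:116229201-116229400 held 24 Th2 and 6 Th1 reads after stimulation, 3.68-fold (1.46 to 11), with 10 Th17 and 0 input reads. At chr10:39711001-39711200 the counts were 23 and 6, and at chr14:52462601-52462800 they were 20 and 5, with 1 in stimulated Th17. The other windows called higher in Th2 were chr2:9603401-9603600, with 17 against 5 reads, and chr17:27459801-27460000, with 20 against 5.

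The stimulated libraries were also compared by the lean of the resting libraries. In the 35 windows with resting Th2 at least 1.5 times resting Th1, the summed ratio of stimulated Th2 to stimulated Th1 was 1.11 (1.00 to 1.23). It was 1.00 (0.954 to 1.05) in the 200 windows between and 0.901 (0.678 to 1.2) in the 8 windows with resting Th1 at least 1.5 times resting Th2. In windows gained in 1 resting subset alone the same ratio was 1.78 (1.68 to 1.89) for Th2 and 0.819 (0.715 to 0.938) for Th1. The intervals of the 3 classes within the shared gained windows overlapped, and their order was not tested.

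Stimulated Th17 had the lowest BRG1 level of the 3 stimulated libraries, in the shared gained and in the comparison windows. The summed ratio of stimulated Th17 to stimulated Th1 was 0.510 (0.488 to 0.533), and 0.502 (0.496 to 0.507) in the comparison windows. Of 225 windows compared, 0 were called higher in Th17 and 45 (20%) higher in Th1, where all windows gave 5.03% and 8.61% and the comparison windows 0 and 12.1%. All windows compared had a median ratio of 0.869, or -0.20 in log2 units. It was 0.532 in the shared gained windows and 0.496 in the comparison windows. Against stimulated Th2, the summed ratio of Th17 was 0.501 (0.481 to 0.523) and 0.542 (0.536 to 0.548) in the comparison windows. Of 228 windows, 0 were called higher in Th17 and 59 (25.9%) higher in Th2. All windows gave 5.25% and 9.15%, and the comparison windows 0.0953% and 9.77%. The median ratio to Th2 was 0.515 in the shared gained windows, 0.554 in the comparison windows and 0.945 over all windows compared. Both comparisons use the same Th17 library, so they are not independent of each other. At most 1 RPM in stimulated Th17 was found in 61 of the 243 windows (25.1%, 19.8 to 31.0) and in 92 of the comparison windows (4.35%, 3.52 to 5.31). This excess was not particular to Th17. The shares were 4.53% against 0.520% in stimulated Th1 and 5.76% against 1.14% in stimulated Th2. Th17 was below both Th1 and Th2 in 200 of the 243 (82.3%) and in 1892 of the comparison windows (89.5%).

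A few windows had high levels in stimulated Th1 and Th2 and almost none in stimulated Th17. The clearest site was chr2:35837401-35837800, made of 2 windows. Its left window had 1 read in naive, 13 in each resting library, 30 (Th1), 38 (Th2) and 3 (Th17) after stimulation, and 1 in input. The difference in RPM was 20.1-fold between Th1 and Th17 (6.27 to 103) and 23.5-fold between Th2 and Th17 (7.44 to 119), and the Th17 level of 0.380 RPM was close to the 0.283 RPM of input. Its right window had 12, 20 and 1 reads in stimulated Th1, Th2 and Th17. In the left window Th1 and Th2 were thus high at rest and after stimulation, and Th17 was near input. The right window had 3.06 RPM in stimulated Th1, below the call of a bound window, 0.965 RPM in naive and 0.283 RPM in input.

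At chr9:124061201-124061400 stimulated Th1 had 24 reads, stimulated Th2 23 and stimulated Th17 2, with 10 and 12 in the resting libraries, 1 in naive and 1 in input. At chr3:107599601-107599800 the stimulated counts were 18, 21 and 1, with 0 in input. At chr9:54974201-54974400, among the highest at rest, they were 23, 46 and 7. At least 5 RPM in both stimulated Th1 and Th2 with at most 1 RPM in Th17 was met by 3 shared gained windows (1.23%, 0.255 to 3.57) and by 3 comparison windows (0.142%, 0.0293 to 0.414). These intervals overlapped.

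In the other direction, Th17 was above both Th1 and Th2 in 13 shared gained windows (5.35%), none of them called. The comparison windows had 62 such windows (2.93%). The window most in favour of Th17 over Th1, chr14:25852401-25852600, had 29 reads in Th17 and 7 in Th1, a ratio of 2.06 in RPM (0.881 to 5.56). At chr1:137556201-137556400 Th17 had 46 reads, or 5.83 RPM, against 3.57 RPM in Th1 and 3.75 RPM in Th2. At chr1:95011801-95012000 the levels were 5.70 RPM in Th17, 3.83 RPM in Th1 and 5.63 RPM in Th2, with no naive read. Those most in favour of Th17 over Th2 included chr9:108241401-108241600, with 31 reads against 8, and chr10:80163601-80163800, with 15 against 3. Their intervals all held 1.

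Across the 243 windows, levels in the stimulated libraries went together. Pearson's r of RPM was 0.84 between stimulated Th1 and Th2 (Spearman's rho 0.80), 0.74 between stimulated Th1 and Th17 (0.67) and 0.64 between stimulated Th2 and Th17 (0.51). Between rest and stimulation r was 0.23 in Th1 (0.14) and 0.40 in Th2 (0.32). Input had r of 0.35 to 0.40 with the stimulated libraries. These are over windows, not replicates, they share the depth of each library, and the rule had narrowed the range of the resting levels.

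Reads beside the windows were not used by the rule. Neighbours that were themselves shared gained or comparison windows were left out of the means below, which uses levels of the rule's own libraries. In the remaining windows directly next to a shared gained window, naive had a mean of 0.774 RPM (0.719 to 0.831), which was 2.48 times the input level (2.21 to 2.77). The mean was 1.37 RPM in resting Th1 and 1.69 RPM in resting Th2, so naive had 0.564 of the resting Th1 level (0.514 to 0.618) and 0.458 of the resting Th2 level (0.417 to 0.503). Beside the comparison windows naive had 0.799 of the resting Th1 level (0.780 to 0.818) and 0.774 of the resting Th2 level (0.754 to 0.794). Naive was therefore lower against both resting libraries beside the shared gained windows than beside the comparison windows, but above input. With no neighbour left out, naive had 0.894 and 0.775 RPM to the left and right of the shared gained windows, against 1.68 and 1.46 RPM in resting Th1. Beside the comparison windows naive then had 2.31 and 2.32 RPM, against 3.08 and 3.16 RPM in resting Th1.

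Farther out, at 200 to 400 bp, naive had 0.623 of the resting Th1 level around shared gained windows and 0.894 around comparison windows, and at 400 to 2000 bp it had 0.654 and 0.802. At 2 to 10 kb these ratios were 0.748 (0.724 to 0.773) and 0.820 (0.810 to 0.830), and against resting Th2 they were 0.636 and 0.735. Stimulated levels in the adjacent windows were 1.71 RPM in Th1, 1.58 RPM in Th2 and 1.24 RPM in Th17, all above naive. Stimulated Th1 had 1.24 times the resting Th1 level there (1.16 to 1.33). Stimulated Th2 had 0.936 of the resting Th2 level (0.873 to 1.004), with an interval that held 1.

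**Figure D2:**
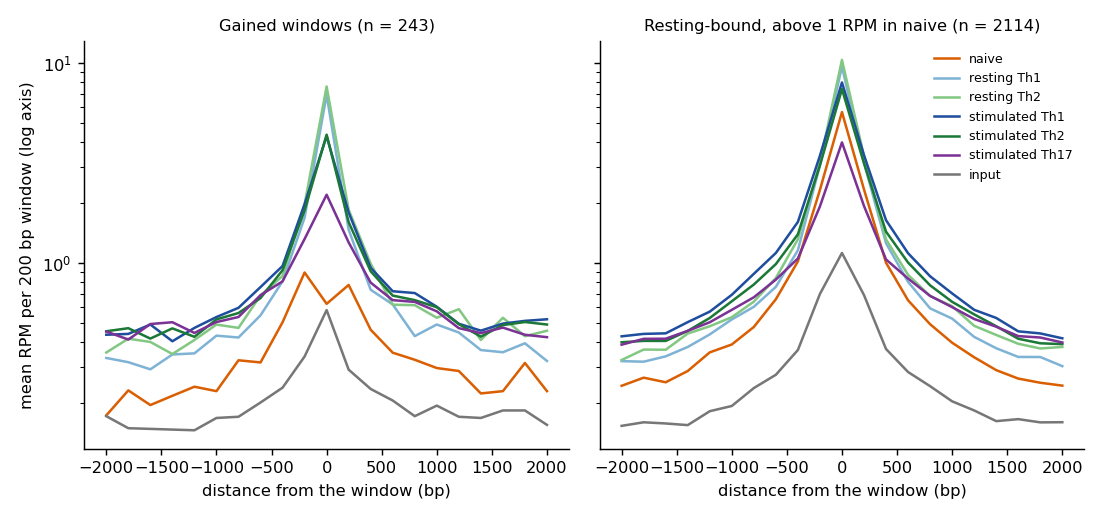
Mean RPM in 200 bp windows by distance from the chosen window (x axis, bp), for the 7 libraries, in shared gained windows and in comparison windows. The naive dip and the resting peaks at the centre of the shared gained windows were set by the rule; beside the centre naive had 0.894 and 0.775 RPM, and the stimulated libraries, which the rule did not use, peaked at the centre.

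Bound naive windows near the shared gained windows were few. A window that met the call of a bound window in naive (at least 5 RPM and 3 times the input level plus 0.3 RPM) lay within 2 kb of 5 of them (2.06%, 0.671 to 4.74) and of 383 comparison windows (18.1%, 16.5 to 19.8), and directly beside 3 and 310. Counted over 600 bp, the window and a neighbour on each side, naive reached at most 1 RPM in 73 of the 243 (30.0%) and at least 5 RPM in 12. Over the same 600 bp, stimulated Th1 had at least 5 RPM in 170, stimulated Th2 in 162 and stimulated Th17 in 109. The largest naive count over 600 bp was 32 reads, at chr7:75894401-75894600, where the left neighbour alone held 30 naive reads, 19 in resting Th1 and 17 in resting Th2. At chr5:36827201-36827400, among the 10 highest at rest, the left neighbour held 15 naive reads and 20 input reads. At chr19:28085601-28085800 the neighbours held 8 naive reads each. The last 2 of these windows thus differed: on chromosome 5 the neighbour was high in input as well, and on chromosome 19 the neighbours held 1 and 2 input reads.

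To see how choice by the same rule moves levels, the reads of each library were split once at random into 2 sets of 50%. The rule was applied to one set and the levels were read from the other, and then the sets were swapped. This check was chosen after the data had been seen. The first set gave 440 windows that met the rule and the second 442, with 46 in common. Their naive level was 0.561 RPM in the reads that chose them and 1.80 RPM (1.68 to 1.92) in the reads left out, and 0.540 and 1.72 RPM after the swap. Resting Th1 moved from 7.22 to 5.03 RPM and resting Th2 from 8.38 to 5.75 RPM, while stimulated Th1, which the rule does not use, stood at 4.06 and 4.09 RPM. Input, which the rule limits, moved from 0.565 to 0.748 RPM, so ratios to input were also lower in the reads left out. In the reads left out, 51.4% of the windows had at most 1 RPM in naive, 45.2% had at least 5 RPM in resting Th1 and 46.4% in resting Th2.

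A lower level in naive remained in the reads left out. Naive had 0.357 of the resting Th1 level (0.329 to 0.388) and 0.312 of the resting Th2 level (0.287 to 0.340), and 0.351 and 0.286 after the swap, which uses the same split. Comparison windows chosen in the same way had 0.649 and 0.600, and 0.640 and 0.587. The ratio in the reads that chose the windows was 0.0778 to resting Th1, so the gain over naive was much smaller in reads that had not chosen it. Stimulated Th1 had 0.813 of the resting Th1 level in the reads left out (0.769 to 0.859) and stimulated Th2 0.715 of the resting Th2 level (0.675 to 0.757), where the choosing reads gave 0.562 and 0.493. The split parts come from the same library and hold no information on replicate spread.

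**Figure D3:**
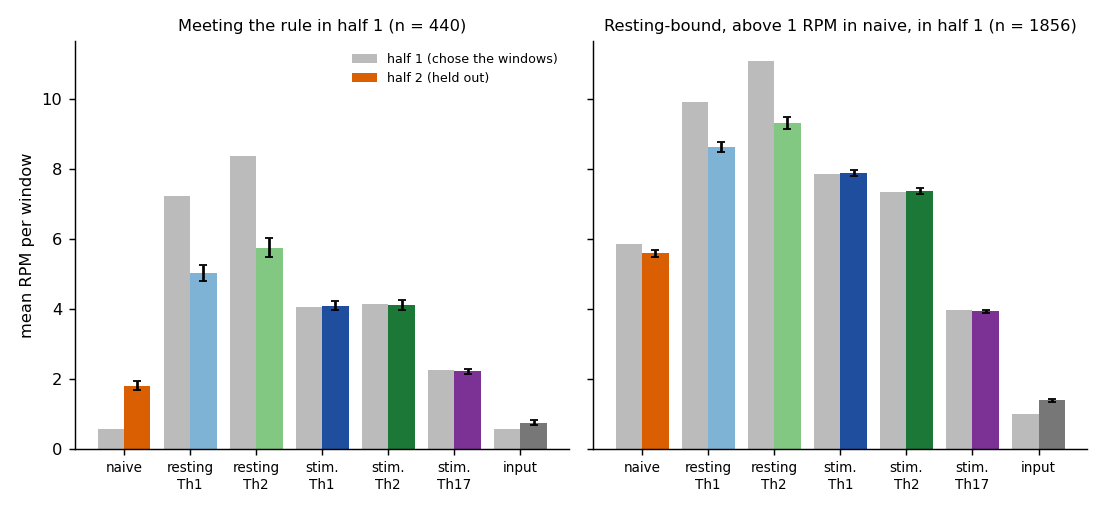
Mean RPM in windows that met the rule in a random 50% of the reads, as read from the same reads and from the remaining reads, for each library. In the reads left out, naive rose from 0.561 to 1.80 RPM and input from 0.565 to 0.748 RPM. The resting levels fell, while the stimulated levels barely moved.

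The 243 windows formed 239 sites, 4 of them with 2 touching windows. Besides the sites on chromosomes 2 and 12 above these were chr5:125586601-125587000, with 18 and 10 reads in resting Th1 and 58 and 32 in stimulated Th1, and chr11:117193401-117193800, with 11 and 18 reads in resting Th1 and 14 and 18 in stimulated Th1. No site had another within 10 kb. Within 50 kb 6 sites lay in 3 pairs. The closest pair, 16400 bp apart, was chr2:169956601-169956800 and chr2:169973201-169973400, with 10 and 13 reads in resting Th1 and 7 and 8 in resting Th2. Pairs on chromosome 11, 20400 bp apart, and on chromosome 6, 40600 bp apart, followed.

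All 19 autosomes held shared gained windows. Chromosome 2 had 27 and chromosome 11 had 21, and chromosome 18 had 3. Per 100 Mb of chromosome the number ran from 3.30 on chromosome 18 to 17.2 on chromosome 11. As a percent of all windows that passed the resting thresholds on a chromosome it ran from 5.22 on chromosome 17 to 18.4 on chromosome 13, where 14 were shared gained windows and 62 comparison windows.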

How the data were processed

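For each library the authors deposited its aligned reads, giving the chromosome, start, end and strand of each 34-base read and a score that was 0 throughout, with no counts or peaks. Reads were aligned to mm9, per the submitters' processing notes; the aligner is not given in the sources used here. All counts and RPM were computed here from those deposited reads. Reads with the same chromosome, 5′ end and strand were counted once, totals left out chromosome Y, each 5′ end was moved 75 bp inward, and reads were counted in 200 bp windows tiled from base 0 of the autosomes. RPM is reads per 1000000 distinct reads, chromosome X included. Shares have Clopper-Pearson intervals, mean levels Poisson intervals and ratios of RPM conditional exact intervals, all at 95%. Pairs of libraries were compared in windows with at least 10 reads and called at 3-fold or more with an interval leaving out 1. Named sites are the 10 with the highest lower resting level, the 6 highest and 6 lowest after stimulation, the 3 most in favour of each library of a pair, examples at each edge of the rule and the closest pairs. Windows named outside this rule (touching windows, windows called in a pair, windows low in Th17, the highest window in stimulated Th1, the window bound in all 3 libraries with no naive read, and those with most naive reads over 600 bp) were chosen after their values were seen. The windows and comparisons were chosen with earlier results of these data known. The gene and motif parts of the plan were not run, because the reference tables given are of another build than mm9 and were not used here. The rule that chose the windows and the call between pairs of libraries were tested on simulated counts per window. The counting of reads and the coverage of the intervals were not tested in this way. Python 3.11.15, numpy 2.4.6, scipy 1.17.1, pandas 2.3.3 and matplotlib 3.10.9 were used.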

Additional observations from a re-analysis of the deposited data

Results flagged for a closer look

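Outside the autosomes, 1 window on chromosome X met the same rule, in reads that no comparison above uses. It lay at chrX:99266601-99266800 and had 0 reads in naive, 11 (Th1) and 19 (Th2) at rest, 35, 36 and 38 after stimulation of Th1, Th2 and Th17, and 2 in input. Its stimulated levels were 8.93, 8.45 and 4.81 RPM, against 0.566 RPM in input. Another 17 windows on chromosome X passed the resting thresholds with more than 1 RPM in naive.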

How the results depend on the processing

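Of 170 values recomputed under other settings, 118 stayed within their interval or within 1.5 times the count and 52 moved. A reversal of order between libraries was not scored, and the order of the stimulated Th1 and Th2 medians changed as given above. The cause of a move was not tested except where the setting itself changes how many windows qualify. The number of shared gained windows was 402 with all reads kept, 56 with a resting minimum of 7 RPM, 126 with a naive maximum of 0.5 RPM and 440 when a random 50% of the reads chose them. The window set itself depended on the grid and shift: of the 243, 87 were found again without the shift and 86 with windows tiled from base 100. It also depended on how reads were counted, with 164 found again with all reads kept, 126 with RPM over autosomal reads and 182 at equal depth. Over autosomal reads, 2 naive reads are more than 1 RPM, so the 117 windows with 2 naive reads dropped out. The percentages bound in stimulated Th1, Th2 and Th17 were 42.9, 46.4 and 17.9 with a resting minimum of 7 RPM, 53.5, 58.0 and 17.7 when bound meant 3 RPM, and 14.8, 13.6 and 2.06 when it meant 7 RPM; with all reads kept it was 12.9 in Th17. At equal depth the median levels were 2.98 RPM in stimulated Th1, 2.98 RPM in Th2 and 1.49 RPM in Th17, and with a resting minimum of 7 RPM they were 4.81 RPM in Th2 and 2.22 RPM in Th17.

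Between stimulated Th1 and Th2, 0 windows were higher in Th1 with all reads kept, without the shift and with a resting minimum of 7 RPM, 4 at equal depth and 3 at 2-fold. Higher in Th2 were 21 with all reads kept, 1 without the shift, 3 with a shift of 100 bp, 2 with windows tiled from base 100, 3 with RPM over autosomal reads, 0 with a resting minimum of 7 RPM and 2 with a naive maximum of 0.5 RPM. Higher in Th17 than in Th1 were 2 with all reads kept, 1 with windows tiled from base 100 and 2 at equal depth. Higher in Th1 than in Th17 were 75 with all reads kept, 26 with RPM over autosomal reads, 11 with a resting minimum of 7 RPM, 21 with a naive maximum of 0.5 RPM, 23 at equal depth and 82 at 2-fold. Higher in Th17 than in Th2 were 6 with all reads kept and 1 without the shift, and higher in Th2 were 132 with all reads kept, 36 with RPM over autosomal reads, 14 with a resting minimum of 7 RPM, 29 with a naive maximum of 0.5 RPM, 32 at equal depth and 96 at 2-fold. Mean naive level beside the windows was 0.674 RPM with all reads kept, 0.709 RPM without the shift, 0.641 RPM with RPM over autosomal reads and 0.667 RPM with a resting minimum of 7 RPM.

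Depth limits the naive level, since 1 read is 0.483 RPM and 3 reads already break the rule, and it limits resting Th2 too, where 1 read is 0.746 RPM. No paired analysis was possible because each group has 1 library; calls between libraries rest on intervals for counting error and not on a test over samples.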
